A study of Mus musculus with 6 samples.

Results

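A set of 9 genes of the bone morphogenetic protein (BMP) pathway was followed in cultured fibroblasts of mouse mammary tumours. They were chosen by symbol: the ligand genes Bmp2, Bmp4 and Bmp6, the antagonist genes Grem1 and Fst, and the target genes Id1, Id2, Id3 and Smad6. All 9 were found among 48368 gene symbols, and 8 were among the 17584 genes with enough counts to be tested. Bmp2 did not pass the filter on low counts. Coordinates are those of GRCm38 in the GENCODE M21 annotation.

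The cells were primary cancer-associated fibroblasts isolated from digested tumours of MMTV-PyMT mice and grown in medium with serum. In these mice the mouse mammary tumour virus promoter, which is active mainly in mammary epithelium, drives the polyomavirus middle T oncogene, so both groups carry this transgene. There were 3 libraries labelled HET, from tumours of Hic-5+/- mice, and 3 labelled KO, from tumours of Hic-5-/- mice. Hic-5, encoded by Tgfb1i1, is a scaffold protein of focal adhesions. The genotype is that of the whole animal, a group without any targeted allele was not analysed here, and neither the age of the mice nor the number of passages is stated. The series text calls the libraries technical triplicates, while their titles carry different numbers, except that HET replicate 3 and KO replicate 3 share one. Between libraries with the same label, gene counts gave 168 to 367 for chi-square over its degrees of freedom, well above sampling error. Nothing says whether they came from separate mice or cultures, so each p measures only the spread between these libraries, whose source is not stated.

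BMPs are secreted dimers that bind pairs of serine/threonine kinase receptors. The receptors phosphorylate Smad1, Smad5 and Smad9, which enter the nucleus with Smad4 and switch on a small set of direct targets. The Id genes and Smad6 are among the best known of these. Id proteins bind bHLH transcription factors and keep them off DNA, and Smad6 blocks the receptors and Smads as a feedback inhibitor. Gremlin 1, encoded by Grem1, binds BMP2 and BMP4 outside the cell, and follistatin, encoded by Fst, binds activins tightly and some BMPs. Stromal fibroblasts are a known source of gremlin 1.

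Depth ran from 24954273 to 42470598 estimated counts per library. Levels are given as CPM, the counts of a gene scaled to a common library size with TMM factors, and 3 counts corresponded to 0.0682 to 0.119 CPM. The label check with Tgfb1i1 gave 223, 348 and 125 CPM across HET replicates 1 to 3, and 90.4, 0.232 and 156 CPM across KO replicates 1 to 3. The targeted gene was thus near the floor in KO replicate 2 alone, and KO replicate 3 lay inside the HET range, so directions below compare libraries by label. KO replicate 2 also stood apart in fibroblast markers. The summed CPM of 8 of these (Pdgfra, Col1a1, Col1a2, Col3a1, Dcn, Lum, Thy1 and Fap) was 151 there and 1393 to 12244 in the other 5 libraries, and Fap stayed at 0.455 CPM or less everywhere. Most of the 151 CPM was Pdgfra, at 124 CPM, not far below KO replicate 3 at 143 CPM. Col1a1, Col1a2, Dcn and Thy1 stood at 2.56, 0.491, 0.775 and 0.981 CPM in KO replicate 2. Col3a1 stood at 21.8 CPM there and was lower in KO replicate 1, at 9.44 CPM. Leukocyte markers (8 genes, with Lyz2 and Ptprc among them) were high in HET replicate 2 (summed CPM 1403) and KO replicate 3 (1134), against 16.2 to 50.4 CPM elsewhere. Most of both sums was Lyz2, at 1257 and 1037 CPM, while Ptprc stood at 8.19 and 5.67 CPM there. Cd14 differed little, at 6.62 to 17.7 CPM over all libraries. In bulk RNA, fewer cells of a type and less RNA per cell cannot be told apart.

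None of the 8 tested genes passed between KO and HET in edgeR's quasi-likelihood test (adjusted p 0.579 to 0.916), and neither did any other gene (0% of those tested). DESeq2 called 1.53% of the genes it gave an adjusted p, none of these genes among them, and it gave no adjusted p for Bmp4. At an unadjusted p under 0.05 in edgeR stood 1 of the 8, Smad6, against 8.59% of all tested genes. In Smad6 alone the groups did not overlap, against 15.5% of all tested genes, or 7.42% with every HET library above every KO library. Of the 8, 3 had a positive and 5 a negative log2 fold change (KO over HET), with a median of -0.22, beside a median of 0.01 over all tested genes. With 8 genes, 1 gene on either measure is close to these background shares, so the account below describes the levels in each library.

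**Figure D1:**
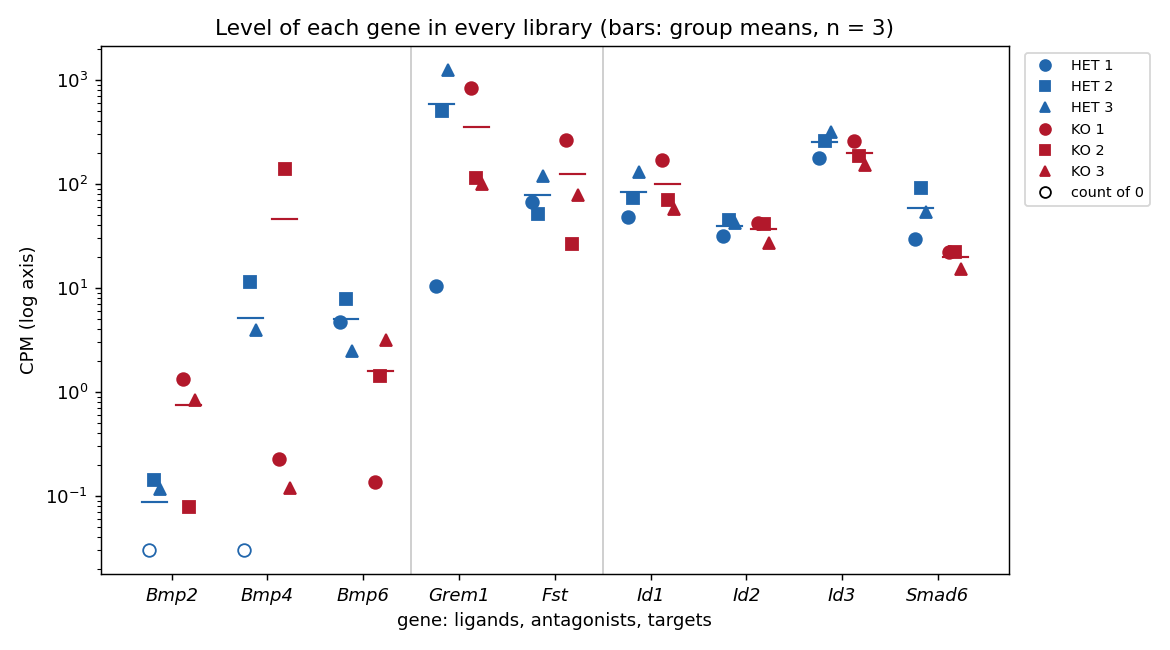
CPM on a log axis for each of the 9 genes in the 3 HET (blue) and 3 KO (red) libraries, with bars at the group means (n = 3) and open symbols for a count of 0. Bmp4 spreads widely within both labels and Grem1 most within HET, Id2 and Id3 lie close together, and only in Smad6 do all HET libraries lie above all KO libraries.

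The ligand genes were low in most cultures, and each was high in a different set. Bmp4 (chromosome 14, 46383520 to 46390669), which encodes a ligand bound by gremlin, stood at 0, 11.4 and 3.92 CPM across HET replicates 1 to 3 and at 0.227, 138 and 0.119 CPM across KO replicates 1 to 3. A single library, KO replicate 2, thus held nearly all of the KO signal, and KO replicates 1 and 3, with 10 and 3 counts, lay near the floor. KO replicate 2 also held the most of several epithelial markers, with Krt18 at 37.9 CPM (at most 2.93 elsewhere), Cdh1 at 14.6 CPM (at most 1.47) and Epcam at 5.66 CPM (at most 0.912). The summed list of 8 epithelial markers, with Krt19 lowest in that library, was 83.2 CPM there and 17.1 to 65.6 CPM elsewhere. The part of these markers in the Bmp4 level was not tested. The count of 0 in HET replicate 1 allows up to 0.106 CPM. The means were 5.11 ± 5.79 CPM across HET and 46.2 ± 79.7 CPM across KO (SD over the 3 libraries of each label). Their log2 fold change came to 3.17 ± 2.64 (SE; adjusted p = 0.709), and it was -4.83 without KO replicate 2 (adjusted p = 0.950), so its sign rests on that library. On log2 CPM with a prior count of 2, 99.9% of all tested genes had a smaller range over the 6 libraries than Bmp4.

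Bmp6 (chromosome 13, 38345107 to 38500302), a ligand gene of another BMP subgroup, stood at 4.71, 7.79 and 2.47 CPM across HET and at 0.136, 1.42 and 3.17 CPM across KO replicates 1 to 3. KO replicate 1 was lowest, with 6 counts, and KO replicate 3 lay above HET replicate 3, so the groups overlapped. The log2 fold change was -1.67 ± 1.02 (adjusted p = 0.632). At its end Bmp6 overlaps Txndc5 on the other strand, and Txndc5 reached 749 CPM. Txndc5 was highest in KO replicate 1, where Bmp6 was lowest. No source used here says whether the counting used strand, and the part of Txndc5 in the low Bmp6 signal was not tested.

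Bmp2 (chromosome 2, 133552159 to 133562885), the closest relative of Bmp4, had 0, 5 and 3 counts across HET replicates 1 to 3 and 58, 3 and 21 counts across KO replicates 1 to 3. KO replicates 1 and 3 lay above the other 4 libraries, at 1.32 and 0.833 CPM, and KO replicate 2 lay among the HET libraries. Tested without a filter on low counts, its log2 fold change was 3.05 (unadjusted p = 0.0469, adjusted p = 0.717). The libraries that held Bmp2 were those nearly without Bmp4 on the KO side, and the library rich in Bmp4 had 3 counts of Bmp2.

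Grem1 and Fst each lay above the sum of Bmp2, Bmp4 and Bmp6, per kilobase of exon, in 5 of 6 libraries. Other BMP-type ligand genes were left out of this sum. Grem1 (chromosome 2, 113746164 to 113758646) stood at 10.4, 505 and 1246 CPM across HET replicates 1 to 3. Across KO replicates 1 to 3 it stood at 841, 113 and 99.2 CPM. Its highest library exceeded its lowest 119-fold, and both were labelled HET. The means were 587 ± 622 and 351 ± 424 CPM, with a log2 fold change of -0.74 ± 1.49 (95% interval -4.34 to 2.85, adjusted p = 0.884). This interval holds large changes in either direction, and the sign turned in 4 of 17 alternative analyses.

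Fst (chromosome 13, 114452290 to 114458951) stood at 66.4, 50.9 and 120 CPM across HET and at 267, 26.6 and 77.8 CPM across KO replicates 1 to 3. The KO group held both the highest and the lowest library, 10.0-fold apart, and all HET libraries lay between them. The log2 fold change was 0.65 ± 0.81 (adjusted p = 0.805), and it was -0.60 without KO replicate 1. Grem1 and Fst were both high in HET replicate 3 and KO replicate 1, but HET replicate 1, lowest in Grem1, lay below KO replicate 3 and above HET replicate 2 and KO replicate 2 in Fst.

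Levels were compared between genes per kilobase of exon (GENCODE M21), since longer transcripts give more counts. On this scale the means over 6 libraries were 126 CPM per kilobase for Id3, 113 for Grem1, 79.0 for Id1, 22.1 for Fst, 15.6 for Id2, 12.2 for Smad6, 11.4 for Bmp4, 0.842 for Bmp6 and 0.117 for Bmp2. Id1 lay above Fst in 6 of 6 libraries, and Id3 lay above Grem1 in 4 and Grem1 above Id1 in 3, so the order at the top was not settled. Neighbours lower down were also mixed, with Fst above Id2 in 4 libraries, Id2 above Smad6 in 5, Smad6 above Bmp4 in 5, Bmp4 above Bmp6 in 4 and Bmp6 above Bmp2 in 5. In the RPKM values the authors deposited, the length is that of the whole gene with its introns, and on that scale Smad6, with its long introns, has a mean of 0.451 RPKM. The mean of Bmp4, at 3.15 RPKM, was higher, but it rests on 17.2 RPKM in KO replicate 2, and Smad6 lay above Bmp4 in 4 of 6 libraries. No source used here says whether reads in introns were counted.

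Set against the sum of Bmp2, Bmp4 and Bmp6 per kilobase of exon, Grem1 ran from far above to below it. The ratio was 2.09, 17.1 and 125 across HET replicates 1 to 3, and 400, 0.442 and 21.7 across KO replicates 1 to 3. The sum of Bmp2, Bmp4 and Bmp6 exceeded Grem1 only in KO replicate 2, the library with high Bmp4, and it exceeded Fst there too. Other BMP-type ligand genes were left out of it. In HET replicate 1 Gdf6, Bmp8a and Bmp8b stood at 1.23, 0.427 and 0.192 CPM per kilobase, beside 1.21 for the sum and 2.52 for Grem1. In HET replicate 2 Gdf6 stood at 9.48 CPM per kilobase, beside 7.11 for the sum and 11.1 for Fst. The comparison thus holds for Bmp2, Bmp4 and Bmp6 alone. The HET range of the Grem1 ratio lay wholly inside the KO range.

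Id1, Id2 and Id3 varied less than Grem1 and Fst, and Id2 and Id3 varied least. Id1 (chromosome 2, 152736251 to 152737410) stood at 47.9, 73.7 and 131 CPM across HET and at 169, 70.3 and 57.7 CPM across KO replicates 1 to 3. KO replicate 1 and HET replicate 3 were high, and the other 4 libraries lay within 47.9 to 73.7 CPM. The log2 fold change was 0.24 ± 0.54 (95% interval -1.06 to 1.53, adjusted p = 0.899).

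Id2 (chromosome 12, 25093799 to 25097140) stood at 31.6, 44.6 and 41.7 CPM across HET and at 42.0, 41.6 and 27.0 CPM across KO. The groups overlapped nearly completely, and the highest library exceeded the lowest by 1.65-fold. Its log2 fold change was -0.09 ± 0.26, with a 95% interval of -0.71 to 0.53, which leaves out a 2-fold change either way (adjusted p = 0.916).

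Id3 (chromosome 4, 136143497 to 136145755), with the highest mean per kilobase of the 9, stood at 179, 261 and 318 CPM across HET and at 259, 187 and 153 CPM across KO. Its log2 fold change was -0.34 ± 0.31 (95% interval -1.10 to 0.42, adjusted p = 0.736). The highest library exceeded the lowest by 2.08-fold for Id3 and by 3.54-fold for Id1. Of all tested genes, 18.3% had a smaller range on the same log2 scale than Id2, 39.4% than Id3 and 68.3% than Id1, against 97.7% for Grem1 and 84.8% for Fst. For Id4, which is not one of the 9, this share was 91.3%, so it varied more than Fst. Among tested genes of similar mean level the share was 86.5% for Id1, against 99.2% for Grem1 and 96.1% for Fst.

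Grem1 and the Id genes shared their 3 highest libraries. HET replicate 2, HET replicate 3 and KO replicate 1 were the 3 highest libraries for Grem1, Id1, Id2 and Id3, an order noticed after the values were seen. Among all tested genes, 7.24% had the same 3 highest libraries. Id4, the remaining Id gene, shared them too, at 31.5, 63.1 and 29.9 CPM there and 10.2, 11.0 and 2.74 CPM in HET replicate 1, KO replicate 2 and KO replicate 3. The step to the other libraries was small for Id2, where KO replicate 2 at 41.6 CPM stood next to HET replicate 3 at 41.7 CPM, and for Id1, where KO replicate 2 at 70.3 CPM stood next to HET replicate 2 at 73.7 CPM. Bmp4, Bmp6, Fst and Smad6 had other sets of 3 highest libraries. Beside Id4, the pathway genes Nog, Twsg1 and Tcf4 had the same 3 highest libraries as Grem1, so the pattern was not particular to the Id genes. Of the fibroblast markers, Pdgfra (204, 689 and 636 CPM in those 3 libraries, 124 to 184 CPM elsewhere) and Thy1 (792, 1573 and 977 CPM, and 0.981 to 170 CPM elsewhere) had the same 3 highest libraries, and their part in the pattern was not tested. The summed fibroblast list did not, since HET replicate 1, low in Grem1, had the highest sum.

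**Figure D2:**
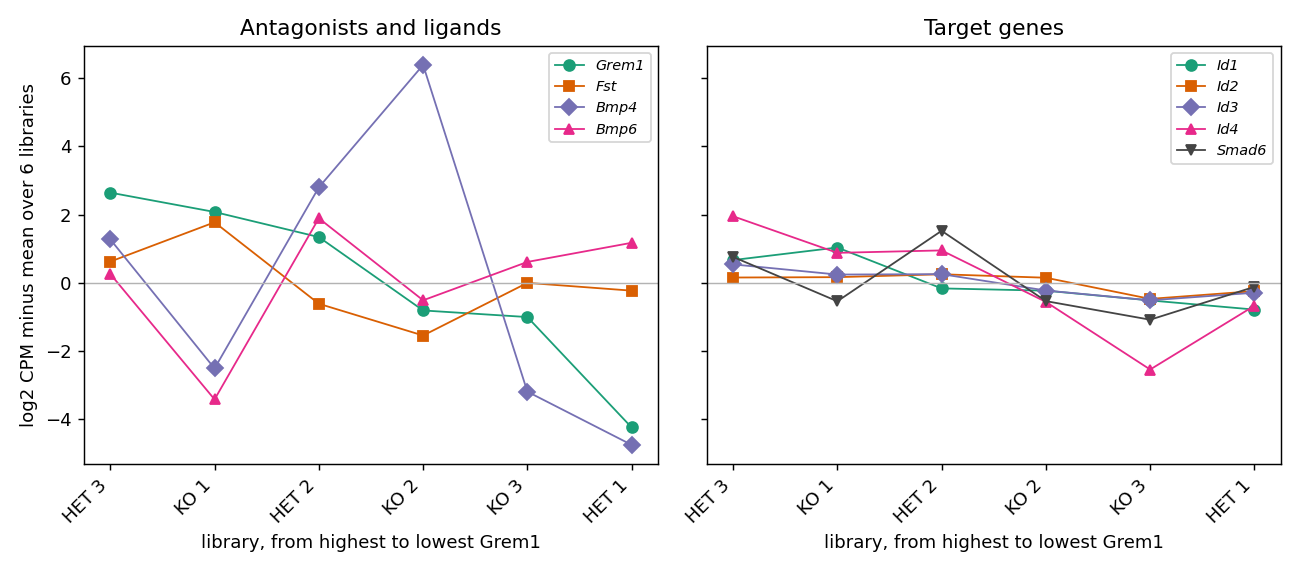
Log2 CPM minus each gene's mean over the 6 libraries, which are ordered from the highest to the lowest Grem1 (left panel antagonists and ligands, right panel target genes; 1 point per library). The 3 libraries on the left are also the highest for Id1, Id2, Id3 and Id4, Smad6 is highest in HET replicate 2, and Bmp4 peaks in KO replicate 2.

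Smad6 followed the Id genes only in part. Its highest libraries, HET replicates 2 and 3, were also among theirs, and KO replicate 3 was lowest for Smad6, Id2, Id3 and Id4. Apart from them, it was higher in HET replicate 1 than in KO replicate 1. Smad6 (chromosome 9, 63953076 to 64022059) stood at 29.4, 91.9 and 54.0 CPM across HET replicates 1 to 3. Across KO replicates 1 to 3 it stood at 21.9, 22.0 and 15.0 CPM. Every HET library lay above every KO library, although HET replicate 1 lay close to the KO libraries. The log2 fold change was -1.57 ± 0.44 (95% interval -2.63 to -0.52, unadjusted p = 0.0103, adjusted p = 0.579), so the gene did not pass. DESeq2 gave an adjusted p of 0.0654, and over 17 alternatives the adjusted p ran from 0.0654 to 0.975, with a negative sign in all 17. These reuse the same libraries, so the shared sign is no independent evidence. In the 2 libraries whose titles carry the same number, HET replicate 3 and KO replicate 3, the values were 54.0 and 15.0 CPM. Without KO replicate 2, which stood apart in fibroblast markers, the log2 fold change was -1.67. Without HET replicate 2, the library highest in Smad6 and rich in leukocyte markers, it was -1.09 (adjusted p = 0.975), and without both libraries that share a title number it was -1.49 (unadjusted p = 0.0637). Other markers separated the labels in the same direction. The summed fibroblast list was 4221 to 12244 CPM across HET and 151 to 3280 CPM across KO. Within it only Col1a1, Col1a2 and Col3a1 were higher in every HET library. Pdgfra, Dcn, Lum, Thy1 and Fap overlapped between the labels, and Dcn was highest in KO replicate 1. The labels were also separated by 2 of 8 genes of an adipocyte list, Lpl (104 to 468 and 41.6 to 89.3 CPM) and Pparg (8.82 to 25.8 and 0.978 to 6.26 CPM). Defining genes of that list, Adipoq, Plin1 and Cidec, were at 0.314 CPM or less in every library. In a pericyte list, Notch3 was higher in every HET library (11.6 to 59.6 against 0.413 to 11.4 CPM). Pdgfrb, Rgs5, Cspg4, Mcam and Des of that list overlapped between the labels. The part of these markers in the Smad6 difference was not tested. The endothelial list of 8 genes summed to 2.76 to 6.71 CPM across HET and 1.94 to 13.8 CPM across KO, with Cldn5 at 0 in every library. Of these, Tek was higher in every HET library (1.45 to 2.09 CPM against 0.0227 to 1.19 CPM). Esam went the other way, higher in every KO library (0.568 to 1.51 CPM against 0.106 to 0.398 CPM in HET). Kdr was highest in KO replicate 1 at 12.8 CPM. Their part was not tested either.

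The ratio of Id to Smad6 transcript therefore separated the labels. The ratio of Id3 to Smad6 in CPM, which is not corrected for length and serves only to compare libraries, was 6.09, 2.84 and 5.89 across HET replicates 1 to 3. Across KO replicates 1 to 3 it was 11.8, 8.52 and 10.2. For Id1 the ratio was 1.63, 0.801 and 2.42 in HET and 7.73, 3.20 and 3.84 in KO. Neither ratio overlapped between the groups, but both carry the separation already present in Smad6, so they add no independent evidence.

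**Figure D3:**
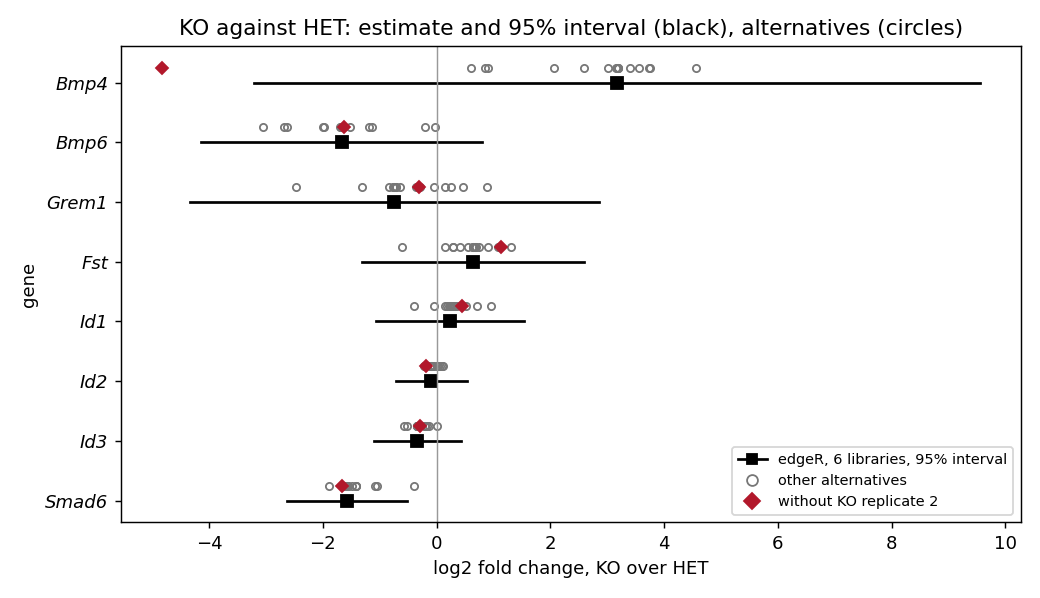
Log2 fold change of KO over HET for the 8 tested genes, with edgeR's estimate and 95% interval in black, the alternative analyses as open circles and the one without KO replicate 2 as a red diamond. Smad6 alone has an interval on one side of 0, that of Id2 is the narrowest, and the Bmp4 estimate moves from 3.17 to -4.83 when KO replicate 2 is left out.

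Promoter sequences are shown for Grem1, Id2 and Id3, which shared their set of highest libraries, and for Smad6, which shared it only in part. RefSeq's promoter table (GRCm38.p6) held 6 of the 9 genes. Each run below is the 250 bases before the start of transcription in RefSeq, read 5′ to 3′ on the gene's strand. Capitals mark GGCGCC, a GC-rich motif recognised by Smad1 and Smad5, and GTCT, the Smad box bound by Smad4, which reads AGAC on the other strand. The windows are chr2:113758649-113758898 (minus strand) for Grem1, chr12:25096093-25096342 (minus) for Id2, chr4:136143572-136143821 (plus) for Id3 and chr9:64022060-64022309 (minus) for Smad6. The RefSeq starts of Id2 and Id3 lie inside the GENCODE M21 spans given above, so these 2 windows overlap those gene models.
Grem1: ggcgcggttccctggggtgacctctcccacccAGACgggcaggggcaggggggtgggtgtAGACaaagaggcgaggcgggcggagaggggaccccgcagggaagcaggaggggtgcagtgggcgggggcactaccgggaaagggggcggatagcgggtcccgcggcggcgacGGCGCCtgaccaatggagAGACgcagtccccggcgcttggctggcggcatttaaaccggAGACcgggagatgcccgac
Id2: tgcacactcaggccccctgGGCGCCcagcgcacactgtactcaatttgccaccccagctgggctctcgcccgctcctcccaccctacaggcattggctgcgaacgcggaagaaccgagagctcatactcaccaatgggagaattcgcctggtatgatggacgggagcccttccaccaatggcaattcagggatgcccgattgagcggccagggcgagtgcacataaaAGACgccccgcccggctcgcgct
Id3: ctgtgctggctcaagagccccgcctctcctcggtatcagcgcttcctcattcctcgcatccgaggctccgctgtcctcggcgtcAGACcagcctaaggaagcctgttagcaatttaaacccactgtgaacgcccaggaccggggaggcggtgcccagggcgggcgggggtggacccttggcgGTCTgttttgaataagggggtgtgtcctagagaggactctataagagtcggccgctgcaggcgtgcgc
Smad6: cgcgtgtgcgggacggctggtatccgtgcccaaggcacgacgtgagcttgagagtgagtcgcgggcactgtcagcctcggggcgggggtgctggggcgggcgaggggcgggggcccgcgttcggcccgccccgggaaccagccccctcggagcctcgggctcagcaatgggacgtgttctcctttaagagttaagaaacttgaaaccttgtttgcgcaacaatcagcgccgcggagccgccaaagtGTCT
GGCGCC occurred once in the Grem1 window, 78 bases before the start, and once in the Id2 window, 231 bases before it. It was not found in these windows of Id3 and Smad6. The motif was present in 9.59% of 32851 promoter windows of the same length, searched on both strands. GTCT occurred in all 4 windows and in 82.9% of all windows, with 4 matches in Grem1, 1 in Id2, 2 in Id3 and 1 in Smad6. A match is only a run of letters, and the libraries hold no measure of Smad binding.

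The genes with the most similar patterns were taken from 10536 named genes of at least 5 CPM, by the root mean square difference of log2 CPM centred on each gene's mean over the 6 libraries. Nearest to Smad6 was Crebl2, at 0.24 log2 units, with 17.4, 61.1 and 46.7 CPM across HET and 15.3, 14.8 and 14.4 CPM across KO, followed by Ccdc85b (0.27) and Gbp2 (0.34). Nearest to Grem1 were Scara3 (0.54), Hspb2 (0.70) and Ccdc85a (0.73). Scara3 stood at 1.31, 43.7 and 91.1 CPM across HET and at 73.7, 17.6 and 20.9 CPM across KO. Fst was closest to Ptgs1 (0.26), Nradd (0.31) and Spry2 (0.34). Spry2, an inhibitor of receptor tyrosine kinase signalling, reached 152 CPM in KO replicate 1, where Fst was highest too. Id1 was closest to Shisa4 (0.18), Mapre2 (0.19) and Efna4 (0.20), Id2 to Chd6 (0.077), Ccnd3 (0.078) and Vps25 (0.081), and Id3 to Pcmtd2 (0.092), Carhsp1 (0.099) and Snrk (0.11). Bmp6 was closest to Rbpms (0.33), Adh7 (0.39) and Alpk1 (0.39), which were all lowest in KO replicate 1. For Bmp4 even the nearest gene was 1.62 away. This was Chrdl1, itself a BMP antagonist gene, at 67.4 CPM in KO replicate 2 and at most 1.73 CPM elsewhere, and Tfap2a (1.62) and Aldh3a1 (1.74) peaked in the same library. Within the set, Id2 and Id3 were nearest each other (0.22), then Id1 and Id3 (0.42), and Smad6 was 0.67 from Id3.

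Of 56 further genes of the pathway, 42 were tested and none passed in edgeR. At an unadjusted p under 0.05 stood 7 of the 42, 6 lower and 1 higher in KO, and in 9 of 42 the groups did not overlap. The count of 7 moved with single libraries, to 2 of 44 tested without HET replicate 2, 4 of 43 without KO replicate 1 and 10 of 45 without KO replicate 3. The background shares were the 8.59% and 15.5% given above, and the lists were drawn up with earlier results of these data known. The median log2 fold change over the 42 was -0.03.

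Among the receptors, 6 of 9 tested had a negative and 3 a positive log2 fold change, with a median of -0.53. Bmpr1a, a type I BMP receptor, had 158 ± 22.7 CPM across HET and 109 ± 15.7 CPM across KO, without overlap (-0.53 ± 0.21, adjusted p = 0.579). Acvr2a, a type II receptor for activins and BMPs, had 48.1 ± 28.2 and 15.0 ± 4.45 CPM (-1.68 ± 0.55, adjusted p = 0.579). HET replicate 3 at 17.2 CPM lay below KO replicate 2 at 18.3 CPM. Eng, the co-receptor endoglin, stood at 138, 170 and 13.8 CPM across HET and at 2.64, 2.69 and 93.1 CPM across KO replicates 1 to 3, so its spread lay within both labels. Rgmb, a BMP co-receptor, had 21.8 ± 5.28 and 28.6 ± 13.0 CPM.

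None of the Smads or their regulators passed the test. Smad5 had 75.2 ± 4.65 CPM across HET and 95.5 ± 22.1 CPM across KO, and Smad4 had 86.4 ± 13.2 and 72.0 ± 6.89 CPM. Smad7, the other inhibitory Smad, stood at 45.2, 90.7 and 59.2 CPM across HET and at 65.9, 69.5 and 139 CPM across KO, with overlap and with a positive log2 fold change of 0.49 ± 0.40 (unadjusted p = 0.260). Its highest libraries, KO replicate 3 and HET replicate 2, were those with leukocyte markers, whose part in it was not tested. Whether Smad6 and Smad7 differed in their fold change was not tested either. Smurf2, a ubiquitin ligase for Smads and their receptors, had means of 134 and 204 CPM, the latter raised by KO replicate 3 at 319 CPM. Of the 8 genes in this list, 7 had a positive log2 fold change (median 0.31), and none reached an unadjusted p under 0.05.

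Of the other secreted modulators, 10 of 13 were tested, 4 with a positive and 6 with a negative log2 fold change (median -0.09). Chrd, the BMP antagonist chordin, stood at 5.46, 5.26 and 5.45 CPM across HET and at 2.09, 1.19 and 1.43 CPM across KO. The 3 HET libraries lay close together and above all KO libraries (-1.78 ± 0.36, edgeR adjusted p = 0.579). It was the only one of the 42 that DESeq2 called (adjusted p = 0.00184). Fstl1, a follistatin-like glycoprotein of mesenchymal cells, had 1831 ± 673 and 854 ± 67.1 CPM (-1.10 ± 0.36, adjusted p = 0.579), without overlap. Chrdl1 had 0.708 ± 0.904 and 22.6 ± 38.8 CPM, the KO mean resting on KO replicate 2 as for Bmp4. Crim1, a membrane protein that binds BMPs, had 196 ± 83.6 and 280 ± 149 CPM.

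Among the other target genes, 7 were tested, 4 with a positive and 3 with a negative log2 fold change. Smad7 and Bambi, both positive, are counted here and in the list of Smads and their regulators. Atoh8, a bHLH factor gene that BMP signalling switches on, stood at 68.3, 89.4 and 86.1 CPM across HET and at 42.0, 50.4 and 20.8 CPM across KO. Like Smad6, it was higher in every HET library (-1.11 ± 0.35, adjusted p = 0.579). Msx2, a homeobox gene and a textbook BMP target, ran the other way, with 3.13 ± 0.768 CPM against 9.09 ± 4.57 CPM (1.54 ± 0.49, adjusted p = 0.579). Id4 had 34.9 ± 26.6 and 14.6 ± 13.9 CPM, with overlap. The markers that separated the labels beside Smad6 did so here, and their part was not tested. Known targets lay on both sides, Smad6 and Atoh8 lower and Msx2 higher in KO, with the Id genes overlapping, and none of these passed the adjusted threshold.

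Of the activin-type ligands, which follistatin binds, 4 of 5 were tested. Inhbb, the activin beta-B subunit, had 117 ± 52.0 CPM across HET and 37.1 ± 17.9 CPM across KO, without overlap (-1.66 ± 0.45, adjusted p = 0.579). Inha, the inhibin alpha subunit, had 2.89 ± 0.496 and 1.64 ± 0.281 CPM, also without overlap. Gdf11 had 68.5 ± 9.64 and 54.6 ± 19.9 CPM. The bHLH partners of Id proteins, Tcf3, Tcf12 and Tcf4, all had positive log2 fold changes of 0.57, 0.32 and 0.60 with overlapping groups. Of the other BMP-type ligands only 3 of 11 were tested. Bmp8a had 0.996 ± 0.159 and 0.255 ± 0.294 CPM, Bmp8b had 0.630 ± 0.101 and 1.21 ± 0.323 CPM, so these close copies lay on opposite sides without overlap. Both values are uncertain, since reads shared between the copies may have been split. Gdf6 had 14.3 ± 16.6 and 8.90 ± 8.58 CPM.

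**Figure D4:**
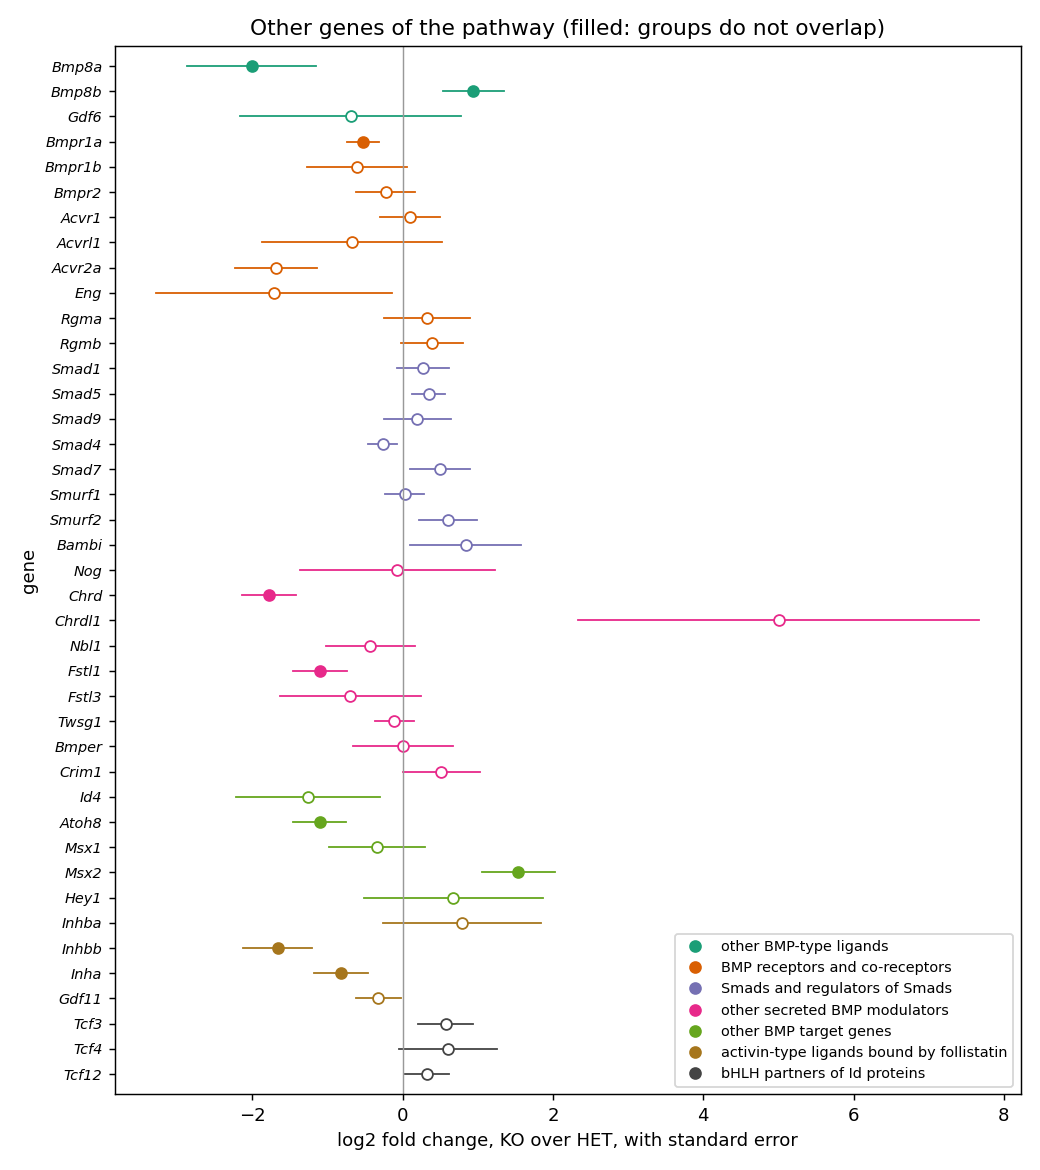
Log2 fold change of KO over HET with its standard error for 41 of the 42 tested genes of the pathway lists, coloured by role and filled where the groups did not overlap. Filled genes lie on both sides of 0, with 7 lower and 2 higher in KO, and none passed the adjusted threshold.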

How the data were processed

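RNA-seq libraries of cultured fibroblasts, 3 labelled HET and 3 labelled KO, were grouped by the cell type label of each sample. Cutadapt 1.2.1, Bowtie2 and Partek are named in the submitters' processing notes, with builds GRCm38 and mm10; no source used here gives the annotation or says whether counting used the strand that the library kit keeps. The authors deposited estimated counts per gene (83.6% to 85.3% of values whole, with counts of 0 included) and RPKM, whose length matched the gene span in GENCODE M21. Counts were rounded. The 30 rows without a gene name, which held up to 0.470% of a library's counts, were left out, and repeated symbols were summed.

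Genes were tested two-sided, KO against HET, with edgeR 4.0.16 (R 4.3.3; filterByExpr defaults, TMM factors, quasi-likelihood test), with Benjamini-Hochberg adjustment over all tested genes at 0.05. SE is the absolute log2 fold change over the square root of F. The procedure was tested on simulated data. Alternatives were DESeq2 1.42.0, limma 3.58.1 (voom, and log2(RPKM + 1) or log2(RPKM + 0.1)), other factors and filters, the shared title number as a term, and libraries left out.

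The genes and lists were chosen with earlier results of these data known. The rule for named genes took each of the 9 genes, Tgfb1i1, up to 4 pathway genes per list with the smallest p, and the 3 genes most like each tested gene. Intervals and floors of 3 counts cover counting error only, except the 95% intervals of fold changes, which come from edgeR's spread between libraries. The values of 1 gene of the pathway lists are not reported here.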

Additional observations from a re-analysis of the deposited data

How the results depend on the processing

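None of the 17 alternatives gave any of the 8 tested genes an adjusted p under 0.05. Smad6, Bmp6 and Id3 were negative in all 17, and Smad6 kept an unadjusted p under 0.05 in 16. All alternatives reuse the same libraries, so these are not independent results. DESeq2 called 240 genes, edgeR and limma 0. Leaving out 1 library moved the number of all genes at an unadjusted p under 0.05 from 1511 to between 648 (without HET replicate 2) and 2281 (without KO replicate 3), and it was 917 without KO replicate 2. The number among the 9 genes was 1, Smad6. It was 2 without a filter on low counts (with Bmp2), 2 in limma-voom (with Bmp6, -2.63), 0 without both libraries that share a title number, and 1 to 2 with 1 library left out (2 without KO replicate 2, with Bmp2). The sign of the log2 fold change turned for Bmp4 without KO replicate 2 (-4.83) and for Fst without KO replicate 1 (-0.60). For Grem1 it turned in limma-voom (0.15), on log2(RPKM + 0.1) (0.25), without both libraries that share a title number (0.88) and without HET replicate 3 (0.46). For Id1 it turned without HET replicate 1 (-0.039) and without KO replicate 1 (-0.40). For Id2 it turned with library size alone (0.056), on log2(RPKM + 1) (0.022) and log2(RPKM + 0.1) (0.022), without both libraries that share a title number (0.11), without HET replicate 2 (0.0058) and without KO replicate 3 (0.092). With 1 library left out the log2 fold change ran from -4.83 to 4.56 for Bmp4, from -2.69 (without KO replicate 3) to -1.14 (without KO replicate 1) for Bmp6, from -2.46 to 0.46 for Grem1, from -0.60 to 1.13 for Fst, from -0.40 to 0.71 for Id1 and from -0.22 to 0.092 for Id2. The cause of these turns was not tested beyond the sample or setting named. Scaling by library size alone moved the median of all genes to 0.15. No paired analysis was possible because the labelled genotypes share only 1 title number, between HET replicate 3 and KO replicate 3. Counts of Bmp2, at 0 to 58 per library, limit what can be said of that gene.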

Other observations

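Some other genes of the lists were high in single cultures. Mstn, which encodes the muscle growth inhibitor myostatin, a ligand of follistatin, was picked out after its values were seen. It was at 51.0 CPM in KO replicate 1, while the other 5 libraries held no more than 0.114 CPM. KO replicate 1 was also the highest library for Fst, at 267 CPM.

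Inhba, the activin beta-A subunit, was highest in KO replicate 3 (443 CPM) and HET replicate 2 (211 CPM) and stood at 45.3 to 53.4 CPM in the other 4 libraries. KO replicate 3 and HET replicate 2 were also the libraries with leukocyte markers, and their part in the Inhba level was not tested. Dlx5 and Hey1 were also picked out after their values were seen. Dlx5, a homeobox target of BMP signalling, reached 3.54 CPM in KO replicate 2, against at most 0.256 CPM elsewhere. Hey1 was highest in the same library, at 3.46 CPM, against 1.34 CPM or less elsewhere, while Id1, Id2 and Id3 lay inside the range of the other libraries there. That library had high Bmp4, raised Krt18, Cdh1 and Epcam, and a summed fibroblast list of 151 CPM, and the part of these in Dlx5 and Hey1 was not tested.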
